A study of Mus musculus with 9 samples.

Results

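The genes described here are 10 that digest DNA or report it in the cytosol: the nucleases Dnase2a, Trex1 and Rnaseh2b, the nucleotide hydrolase Samhd1, the cGAS-STING arm of Cgas, Sting1, Tbk1, Ikbke and Irf3, and the inflammasome sensor Aim2. They were chosen by name, with earlier results of these data known. Each of the 10 had a row among the 13708 genes of the table and passed the filter on low values that left 13594 genes for testing. Transcripts were measured by bulk RNA-seq in macrophages sorted from mouse fetal liver at E15.5 as CD45+ F4/80+ CD11blo cells. The sort took in cells with high and with low Tim4, a surface protein of these macrophages. There were 5 Mrc1Cre Xpr1fl/fl samples and 4 Xpr1fl/fl samples. Both genotypes carried loxP sites around exon 2 of Xpr1, which encodes a phosphate exporter, and only the first carried Cre. Cre was expressed from the Mrc1 locus, which is active in CD206+ macrophages and in liver sinusoidal endothelial cells, and the controls had no Cre allele. The sources used here do not say whether each sample was a single embryo, so the p-values measure the spread between these samples. The livers of both genotypes were dissociated in a buffer that contained DNase I.

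Macrophages of the fetal liver sit at the centre of erythroblastic islands and engulf the nuclei that maturing red cells expel. DNase II, encoded by Dnase2a, degrades that DNA in the lysosome, and TREX1, RNase H2 and SAMHD1 limit DNA and RNA-DNA hybrids outside it. DNA that reaches the cytosol binds cGAS, whose product cGAMP activates STING, and STING recruits TBK1 and IKKε to phosphorylate IRF3, which turns on type I interferon genes, while AIM2 binds cytosolic DNA to assemble an inflammasome.

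Values are normalized counts, that is, counts per gene after division by the normalization factors of the authors, and their totals ran from 27987204 to 28309443 in the Mrc1Cre Xpr1fl/fl samples and from 26942921 to 28291555 in the controls. These totals are set by the normalization, and sequencing depth is unknown. The targeted gene followed the labels, since Xpr1 averaged 1162.1 ± 84.9 normalized counts (SD, n = 5) with Cre and 1981.6 ± 204.7 (SD, n = 4) without, a log2 fold change of -0.77 (SE 0.08, limma, adjusted p = 4.13e-05), and no sample with Cre reached a control. Counts are per gene, so transcripts that lack exon 2 can still contribute. The dates at the start of the column names differed between the genotypes: Mrc1Cre Xpr1fl/fl samples 1 to 4 shared the latest, control sample 4 had one of its own, and Mrc1Cre Xpr1fl/fl sample 5 shared the earliest with control samples 1 to 3. What the dates stand for is not stated. A second fit with the date as a term, which rests on sample 5 against those 3 controls, is therefore given beside the calls of the genes named. Its standard errors were larger for each of the 10 genes, so a call can be lost without a smaller change.

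Marker genes of other cells also moved with genotype, where 21.5% of all genes tested were higher and 21.6% lower by limma at an adjusted p of 0.05. All 13 erythroid genes were lower in Mrc1Cre Xpr1fl/fl samples, where their summed share of the normalized counts was 0.325% to 1.09%, against 1.49% to 2.32% in controls. All 8 hepatocyte genes (0.123% to 0.16% against 0.216% to 0.357%) and 8 of 10 endothelial genes (0.0214% to 0.0293% against 0.0368% to 0.0483%) were lower too, as were 4 of 9 granulocyte and progenitor genes (0.018% to 0.065% against 0.0327% to 0.197%). Of 7 monocyte genes 2 were higher and 3 lower (0.0261% to 0.0328% against 0.0245% to 0.0364%), and of 11 replication and mitosis genes 1 was higher and 1 lower (0.274% to 0.32% against 0.271% to 0.316%). Of 14 macrophage genes 1 was higher and 7 were lower (1.27% to 1.47% against 1.61% to 2.03%), and no marker of these lists was at 0 in any sample. The most abundant gene of each list had a log2 fold change of -1.87 for Hba-a1, -0.67 for Trf, -0.78 for Stab2, -1.42 for S100a9 (adjusted p = 0.169), 0.44 for Cd48, 0.05 for Mki67 (adjusted p = 0.775) and -0.90 for Cd5l, each from limma. With the date term 3 of the 13 erythroid, 2 of the 8 hepatocyte, 1 of the 10 endothelial and all 4 of those granulocyte and progenitor genes were still lower, and the erythroid median log2 fold change went from -1.82 to -0.94. The fit with that term called 4.24% of all genes tested higher and 4.54% lower. By that fit 1 macrophage gene was higher and 4 were lower, 1 monocyte gene was higher and 1 lower, and 0 replication and mitosis genes passed. Of the genes just named, Cd48 alone passed with the date term (0.50, adjusted p = 0.0153), and the calls of Hba-a1 (adjusted p = 0.128), Trf (0.0817), Stab2 (0.128) and Cd5l (0.25) were lost. In bulk samples, fewer cells of a type and less RNA per cell cannot be told apart, and the part of these shifts in the results below was not tested.

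Per kilobase of the canonical transcript, Dnase2a (3057.0 ± 306.4, SD, n = 4) and Samhd1 (2685.1 ± 124.8) were the most abundant of the 10 genes in control macrophages, and their samples overlapped. Rnaseh2b (938.6 ± 27.9) and Trex1 (927.7 ± 111.1) came next and overlapped each other, as did Irf3 (734.5 ± 13.4) and Tbk1 (733.4 ± 63.6) below them. Aim2 (577.2 ± 25.1) was separate from its neighbours on either side, Ikbke (427.8 ± 72.1) overlapped Sting1 (327.2 ± 49.9), and Cgas (151.8 ± 20.5) was the lowest, below every Sting1 value. In Mrc1Cre Xpr1fl/fl macrophages (n = 5) Samhd1 stood first at 3663.7 ± 192.4 per kilobase and Dnase2a second at 2783.1 ± 115.6, without overlap. Ikbke stood sixth there at 789.0 ± 140.2, above Irf3 at 655.5 ± 35.4, though their samples overlapped. Cgas was again lowest at 259.0 ± 28.8, where it overlapped Sting1 at 311.3 ± 26.9. The sensor and its adaptor were thus the 2 least abundant transcripts per length in either genotype.

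By limma on log2 values with Benjamini-Hochberg adjustment over all genes tested, 5 of the 10 genes were higher in Mrc1Cre Xpr1fl/fl macrophages (Samhd1, Cgas, Tbk1, Ikbke and Aim2), 1 was lower (Irf3), and 4 did not pass the threshold (Dnase2a, Trex1, Rnaseh2b and Sting1). Across all genes tested 21.5% were higher and 21.6% lower by the same rule. Among the nucleases and the hydrolase 1 of 4 passed, in the cGAS-STING arm 4 of 5 did, 3 of them higher and 1 lower, and the difference between these shares was not tested. The median log2 fold change was 0.05 over the 4 and 0.21 over the 5, beside 0.005 over all genes tested. For 5 of the 10 genes the 2 groups of samples had separate ranges, as they had for 34.1% of all genes tested. With the date term 3 genes remained higher (Samhd1, Cgas and Ikbke) and 0 were lower, where 4.24% of all genes were higher and 4.54% lower.

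**Figure D1:**
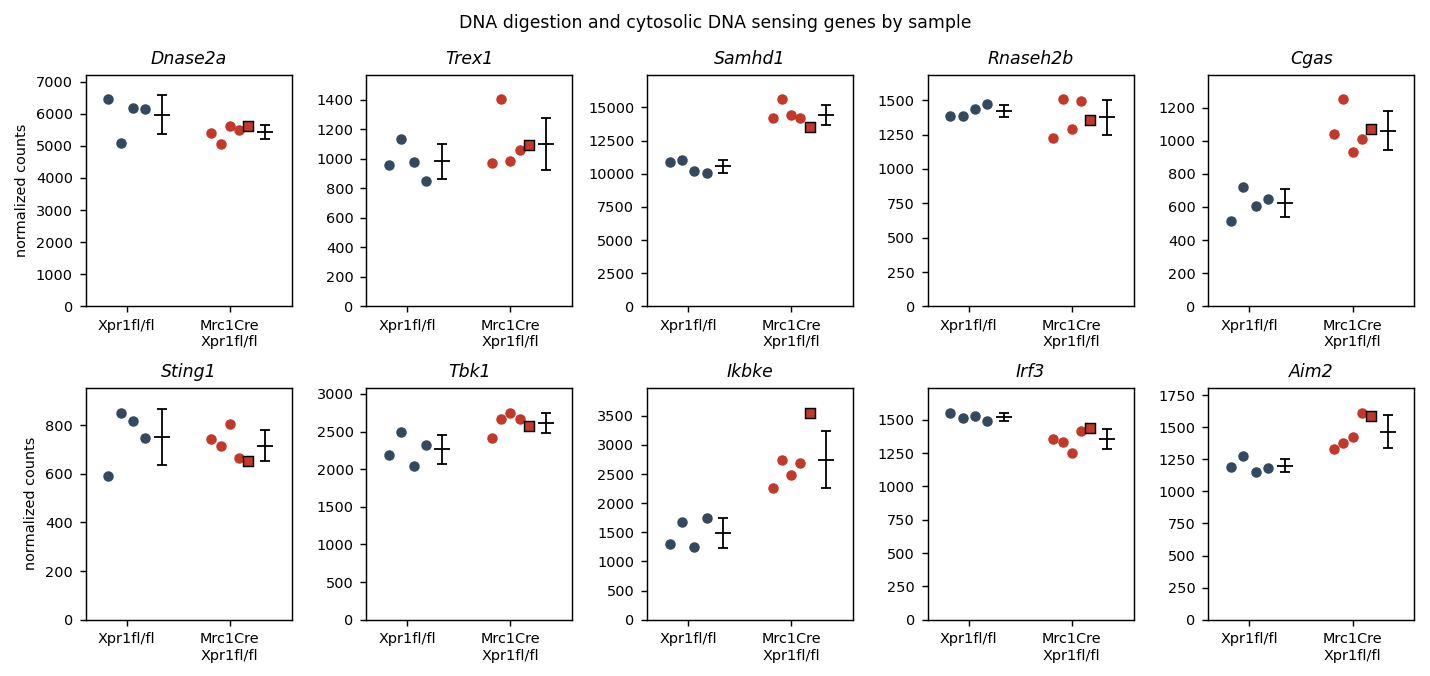
Normalized counts (y axis, from 0) of the 10 genes in each sample of the 2 genotypes (x axis), with the mean and SD beside the points. The square is Mrc1Cre Xpr1fl/fl sample 5, which shares its column date with control samples 1 to 3. Samhd1, Cgas, Ikbke and Aim2 lie wholly above the controls, Irf3 lies wholly below them, and the other genes overlap.

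Short stretches of promoter are shown for Dnase2a, Samhd1 and Tbk1, because they hold matches to motifs of interferon signalling and contrast a gene that did not pass the threshold with others that rose. The 300 bases before each canonical start (GRCm39) were searched on both strands for an interferon-stimulated response element (GAAA, any 2 bases and GAAA, in 3.91% of the promoters of 12937 protein-coding genes tested), a gamma-activated site (TTCNNNGAA, in 8.22%) and the E-box CACGTG (in 8.46%), and no matches overlapped. Matches are in capitals, and each stretch of 150 bases is written 5′ to 3′ on the strand of its gene. The Dnase2a stretch (chr8:85634989-85635138, plus strand, bases 200 to 51 before the start) holds a response element at bases 155 to 146 and an E-box at bases 68 to 63. The Samhd1 stretch (chr2:156977188-156977337, minus strand, bases 150 to 1) holds a gamma-activated site at bases 64 to 56, and the Tbk1 stretch (chr10:121422904-121423053, minus strand, bases 300 to 151) a response element at bases 214 to 205. None of the 3 stretches overlaps an annotated exon.
Dnase2a: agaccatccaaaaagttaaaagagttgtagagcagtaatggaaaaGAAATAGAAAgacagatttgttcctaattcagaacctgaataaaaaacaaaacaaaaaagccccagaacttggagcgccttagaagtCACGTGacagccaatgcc
Samhd1: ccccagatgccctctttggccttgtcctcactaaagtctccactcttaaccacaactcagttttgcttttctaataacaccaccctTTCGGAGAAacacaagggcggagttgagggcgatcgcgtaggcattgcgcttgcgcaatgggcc
Tbk1: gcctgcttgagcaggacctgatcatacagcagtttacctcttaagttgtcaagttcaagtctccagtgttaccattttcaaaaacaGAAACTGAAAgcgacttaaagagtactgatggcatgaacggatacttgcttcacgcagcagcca
A response element match was thus present before Dnase2a and Tbk1, and neither it nor the other motifs were found in the windows of Cgas, Ikbke and Aim2, which rose, or of Trex1, Rnaseh2b and Irf3. The windows of Trex1 and Aim2 lie wholly within annotated exons, and 146 of the 300 bases of the Irf3 window do. A match to these letters is a description and not a measured binding site.

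Dnase2a (ENSMUSG00000003812), the lysosomal endonuclease, spans chr8:85635189-85649544 on the plus strand. Its normalized counts were 5399.6, 5065.1, 5606.6, 5508.2 and 5611.5 in the 5 Mrc1Cre Xpr1fl/fl samples and 6447.6, 5096.6, 6191.9 and 6157.4 in the 4 controls. Of the controls 3 lay above every Mrc1Cre Xpr1fl/fl sample, while control sample 2 lay below 4 of the 5. The log2 fold change was -0.13 (SE 0.07, 95% confidence interval -0.28 to 0.02), which did not pass the threshold (limma, adjusted p = 0.146). Without control sample 2 it was -0.21 and passed (adjusted p = 0.0105), and it also passed after scaling to the 75th percentile (-0.21, adjusted p = 0.0308) and after quantile normalization (-0.23, adjusted p = 0.0196). With the date term it was -0.07 (adjusted p = 0.769). Dnase2a lies 3255 bases from the erythroid transcription factor gene Klf1, whose log2 fold change was -1.88 (adjusted p = 9.05e-05), and overlaps Mast1 on the other strand (-0.74, adjusted p = 0.0272), which averaged 32.4 normalized counts in controls. Gcdh, 5050 bases away, was lower as well (-0.29, adjusted p = 0.00489). Klf1 passed with the date term (-1.16, adjusted p = 0.0392), and Mast1 (adjusted p = 0.122) and Gcdh (adjusted p = 0.386) did not. The counting is not stated to have used strand, so reads of overlapping genes may not be told apart.

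Samhd1 (ENSMUSG00000027639, chr2:156939453-156977187, minus strand), which breaks down deoxynucleotide triphosphates, was the most abundant of the 10 genes by normalized counts and rose 1.36-fold. It gave 14231.4, 15600.2, 14409.2, 14193.9 and 13520.7 normalized counts with Cre, against 10880.1, 11052.5, 10167.9 and 10088.1 in controls, and every Mrc1Cre Xpr1fl/fl sample was above every control. On the log2 scale the change was 0.45 (SE 0.05, 95% confidence interval 0.33 to 0.57, limma, adjusted p = 9.76e-05). With the date term the rise was 0.34 and still passed (adjusted p = 0.0397). Rbl1, a retinoblastoma family gene 10626 bases away, also rose (0.27, adjusted p = 0.0218) but did not pass with the date term (0.09, adjusted p = 0.662), and Mtcl2, 17854 bases away, had a log2 fold change of 0.24 (adjusted p = 0.132).

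Trex1 (ENSMUSG00000049734, chr9:108887001-108888802, minus strand), the main cytosolic 3′ exonuclease for DNA, had 975.1, 1403.5, 982.6, 1058.3 and 1091.9 normalized counts with Cre and 959.0, 1137.0, 982.0 and 851.6 without. The groups overlapped, and Mrc1Cre Xpr1fl/fl sample 2 stood above all the others. The log2 fold change of 0.16 (SE 0.11, 95% confidence interval -0.09 to 0.41) did not pass the threshold (limma, adjusted p = 0.277). Trex1 overlaps Atrip on the same strand (0.07, adjusted p = 0.5) and Shisa5 on the other (0.25, adjusted p = 0.00583), so the assignment of its reads is uncertain. The Shisa5 call was lost with the date term (0.14, adjusted p = 0.401). Ccdc51 and Tma7, within 20 kb, had log2 fold changes of 0.02 and 0.11 and did not pass.

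Rnaseh2b (ENSMUSG00000021932, chr14:62530038-62630559, plus strand), a subunit of the heterotrimeric RNase H2 that removes ribonucleotides from DNA, ran from 1225.9 to 1506.8 normalized counts with Cre and from 1385.9 to 1473.5 without. All controls lay within the range of the Mrc1Cre Xpr1fl/fl samples, and the log2 fold change was -0.05 (SE 0.07, 95% confidence interval -0.20 to 0.10, limma, adjusted p = 0.575). The other 2 subunits were lower by the same fit. Rnaseh2a, the catalytic subunit, averaged 856.5 ± 57.9 normalized counts with Cre (SD, n = 5) and 1029.5 ± 48.0 without (SD, n = 4), a log2 fold change of -0.27 (adjusted p = 0.00744) that was -0.13 with the date term and no longer passed (adjusted p = 0.493). Rnaseh2c had 432.9, 448.0, 500.8, 427.8 and 831.1 normalized counts with Cre and 779.9, 909.2, 897.6 and 788.5 without. Samples 1 to 4 thus lay below every control while sample 5 lay among them, so that the log2 fold change of -0.72 (adjusted p = 0.00648) became -0.05 with the date term (adjusted p = 0.854) and -0.90 without sample 5.

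Cgas (ENSMUSG00000032344, chr9:78337802-78350535, minus strand), the cytosolic DNA sensor, rose 1.71-fold. Its normalized counts were 1043.1, 1249.4, 929.5, 1012.4 and 1072.9 in Mrc1Cre Xpr1fl/fl macrophages and 518.0, 719.2, 606.1 and 645.7 in controls. The lowest sample with Cre was above the highest control. The rise amounted to 0.77 on the log2 scale (SE 0.10, 95% confidence interval 0.54 to 1.00, limma, adjusted p = 0.000203), and it was 0.82 with the date term (adjusted p = 0.031). Per kilobase, Dnase2a exceeded Cgas 8.5-fold to 12.6-fold in the Mrc1Cre Xpr1fl/fl samples and 14.9-fold to 26.1-fold in the controls. This ratio was chosen after the values were seen and was not tested. The neighbour Mto1 had a log2 fold change of -0.08 (adjusted p = 0.44), and the pseudogene Gm8093 averaged 15.0 normalized counts in controls (-0.68, adjusted p = 0.316).

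Sting1 (ENSMUSG00000024349), the adaptor that cGAMP activates, had 741.9, 715.8, 805.8, 666.9 and 651.2 normalized counts with Cre and 593.0, 851.4, 818.3 and 749.2 without. The controls held both the lowest and the highest value of the 9 samples. The log2 fold change was -0.06 (SE 0.11, 95% confidence interval -0.30 to 0.17) and did not pass the threshold (limma, adjusted p = 0.671), and without control sample 2 it was 0.00. Its promoter window, not shown here, held a gamma-activated site match at bases 39 to 31 before the start. A change of up to 1.13-fold upward or to 0.813 of the control level lies within that interval. Its neighbour Ecscr, an endothelial gene, averaged 13.9 normalized counts with Cre and 29.0 without (adjusted p = 0.206).

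Ikbke (ENSMUSG00000042349, chr1:131182080-131207346, minus strand), which encodes the kinase IKKε, had the largest change of the 10 genes at 1.84-fold. Normalized counts were 2268.7, 2746.8, 2479.5, 2696.1 and 3554.0 with Cre, against 1305.8, 1670.4, 1244.9 and 1740.1 in controls. The groups did not overlap, and the highest value was in sample 5, which shares its date with controls. The log2 fold change was 0.88 (SE 0.13, 95% confidence interval 0.59 to 1.18, limma, adjusted p = 0.000423) and 1.35 with the date term (adjusted p = 0.00219). The neighbours Srgap2 (0.24, adjusted p = 0.00742) and Rassf5 (0.29, adjusted p = 0.000638) also rose, and neither passed with the date term (0.16, adjusted p = 0.315, and 0.24, adjusted p = 0.0949).

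Tbk1 (ENSMUSG00000020115, chr10:121382360-121422848, minus strand), the related kinase, rose less. It had 2415.6, 2671.4, 2750.7, 2660.4 and 2568.4 normalized counts with Cre and 2184.6, 2498.1, 2039.9 and 2327.6 without, and control sample 2 exceeded Mrc1Cre Xpr1fl/fl sample 1. Its log2 fold change was 0.21 (SE 0.07, 95% confidence interval 0.07 to 0.35, limma, adjusted p = 0.022). The call was lost with the date term (0.20, adjusted p = 0.315), after scaling to the 75th percentile (0.13, adjusted p = 0.13), after quantile normalization (0.12, adjusted p = 0.153), and without Mrc1Cre Xpr1fl/fl sample 3 (adjusted p = 0.0531), control sample 1 (adjusted p = 0.054) or control sample 3 (adjusted p = 0.0727). Per kilobase, the ratio of Ikbke to Tbk1 was 0.832, 0.910, 0.798, 0.897 and 1.23 with Cre and 0.529, 0.592, 0.540 and 0.662 without. The ratio was higher in every Mrc1Cre Xpr1fl/fl sample, and it was chosen after the values were seen and not tested. Xpot, 433 bases away, had a log2 fold change of 0.09 (adjusted p = 0.283).

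Irf3 (ENSMUSG00000003184, chr7:44647033-44652272, plus strand), the transcription factor these kinases phosphorylate, was the 1 gene of the 10 that was lower. Its normalized counts were 1354.8, 1329.3, 1251.1, 1411.6 and 1437.4 with Cre and 1552.7, 1511.6, 1530.0 and 1487.2 without, and every control was above every Mrc1Cre Xpr1fl/fl sample. On the log2 scale the difference was -0.17 (SE 0.05, 95% confidence interval -0.28 to -0.05, limma, adjusted p = 0.0288). The call was lost with the date term (-0.09, adjusted p = 0.584) and, at adjusted p between 0.0524 and 0.0679, without any 1 of Mrc1Cre Xpr1fl/fl samples 1, 2 and 3 or control samples 1, 2 and 3. Irf3 overlaps Bcl2l12 (-0.08, adjusted p = 0.479) and Scaf1 (0.09, adjusted p = 0.28) on the other strand. Of the genes farther off, Rras was lower (-0.32, adjusted p = 0.0227), a call lost with the date term (-0.15, adjusted p = 0.629), and Prmt1 had a log2 fold change of 0.06 (adjusted p = 0.472).

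Aim2 (ENSMUSG00000037860, chr1:173178445-173293930, plus strand), the inflammasome sensor of DNA, rose 1.22-fold. It had 1329.3, 1374.3, 1420.8, 1613.5 and 1588.4 normalized counts with Cre and 1193.2, 1273.0, 1149.4 and 1184.2 without. No Mrc1Cre Xpr1fl/fl sample reached down to a control. The log2 fold change was 0.28 (SE 0.07, 95% confidence interval 0.13 to 0.44, limma, adjusted p = 0.00714), and it was 0.40 with the date term, where it no longer passed (adjusted p = 0.0675). Ifi206, an interferon-inducible gene of the same family 2121 bases away, rose more (2.07, adjusted p = 6.54e-05), while Ackr1, 17128 bases away, fell (-1.87, adjusted p = 9.45e-05), and both passed with the date term (adjusted p = 0.0292 and 0.0402).

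**Figure D2:**
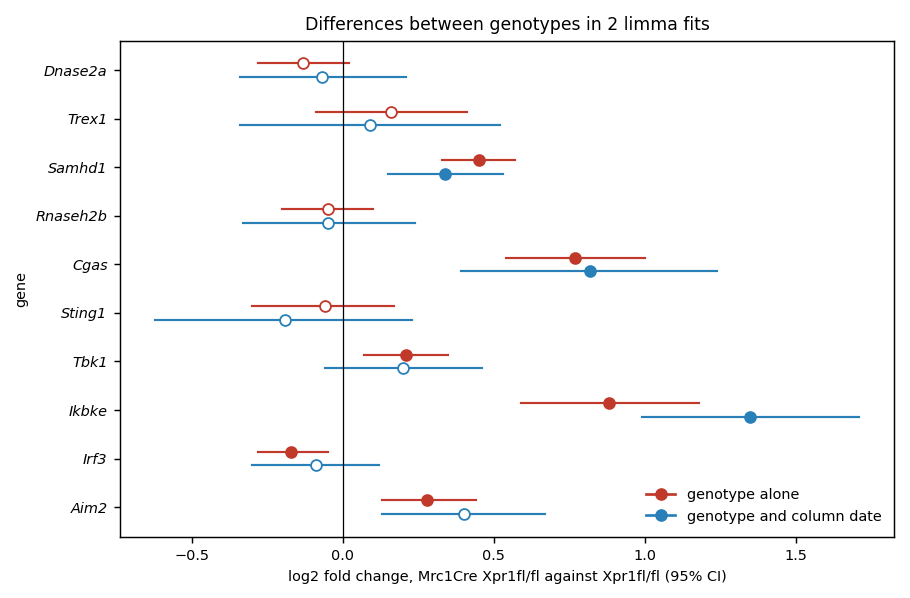
Log2 fold changes of the 10 genes (x axis, Mrc1Cre Xpr1fl/fl against Xpr1fl/fl) with 95% confidence intervals, from limma with genotype alone and with the column date as a further term. Filled points passed an adjusted p of 0.05. Samhd1, Cgas and Ikbke are filled in both fits, and Ikbke moves from 0.88 to 1.35.

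Single samples held the highest or lowest value of their genotype for several of these genes, as some sample must for each gene. Control sample 2 had the highest control value for 6 of the 10 genes, namely Trex1, Samhd1, Cgas, Sting1, Tbk1 and Aim2, and the lowest for 2, Dnase2a and Rnaseh2b. Mrc1Cre Xpr1fl/fl sample 2 had the highest value of its genotype for 4 of the 10, Trex1, Samhd1, Rnaseh2b and Cgas, and again the lowest for Dnase2a. Sample 1 of that genotype had its lowest value for 5 of the 10. Some margins were small, such as 11052.5 normalized counts for Samhd1 in control sample 2 against 10880.1 in control sample 1. These ranks were not tested. After subtraction of each genotype mean, the genes most like Dnase2a over the 9 samples were C1qc (Pearson r = 0.986), Trf (0.982), Arl6ip1 (0.982), Laptm4a (0.975) and Hmox1 (0.971). Those most like Cgas were Zfp959 (0.97), Dhx58 (0.964), Pold3 (0.956), Bin2 (0.952) and Wdr46 (0.95). These correlations are a description of 9 libraries that share a normalization. Each set holds the 5 highest values found among all genes averaging at least 50 normalized counts. Dnase2a lay farthest from its genotype mean in control sample 2, at -0.22 on the log2 scale. C1qc (40915.5 normalized counts) and Trf (27161.3) also had their lowest control values in that sample. Its part in the correlations was not tested. Trf is also the most abundant gene of the hepatocyte list above, at 35179.7 normalized counts in controls against 18823.2 for Alb. How much of its RNA came from hepatocytes was not tested.

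Genes for the digestion of nucleic acid in the lysosome, Dnase2a and Slc29a3 among them, did not move in 1 direction. Of the 7 on that list 6 had a row, with a median log2 fold change of -0.22. Of these 1 was higher and 3 were lower, beside 21.5% higher and 21.6% lower over all genes tested. Pld3, a 5′ exonuclease of the lysosome, had 6063.4, 6052.7, 7390.8, 7016.1 and 7464.8 normalized counts with Cre and 12072.9, 8926.7, 14327.4 and 12052.6 without. It was lower in every Mrc1Cre Xpr1fl/fl sample, with a log2 fold change of -0.79 (SE 0.12, limma, adjusted p = 0.000431), and its date-term value was -0.63 (adjusted p = 0.0959). Pld4, its close relative, moved the other way, from 12349.6 ± 930.8 normalized counts in controls (SD, n = 4) to 14954.9 ± 818.2 (SD, n = 5), a log2 fold change of 0.28 (adjusted p = 0.0047) that passed with the date term as well (0.40, adjusted p = 0.0392). The ribonuclease genes Rnaset2b (-0.44, adjusted p = 0.000175) and Rnaset2a (-0.32, adjusted p = 0.0118) were lower. They are near-identical copies, between which reads could be split, and neither passed with the date term (adjusted p = 0.0608 and 0.234). Of 11 other deoxyribonuclease genes with a row 1 was higher and 2 were lower, namely Dnase1l3, a secreted enzyme of macrophages (0.22, adjusted p = 0.0333), Dna2, a nuclease of replication and repair (-0.73, adjusted p = 0.000313), and Dnase1l1 (-0.31, adjusted p = 0.00953), and 0 passed with the date term.

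Genes mutated in Aicardi-Goutières syndrome, an inherited interferonopathy, were listed together with RNase H1. Of these 9 genes 3 were higher and 2 lower, beside 21.5% and 21.6% of all genes tested. Besides Samhd1, the higher genes were Ifih1, which encodes the RNA sensor MDA5 (0.80, SE 0.12, limma, adjusted p = 0.000409), and Adar, which edits double-stranded RNA (0.55, SE 0.09, adjusted p = 0.000878). Neither passed with the date term (adjusted p = 0.0958 and 0.114).

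**Figure D3:**
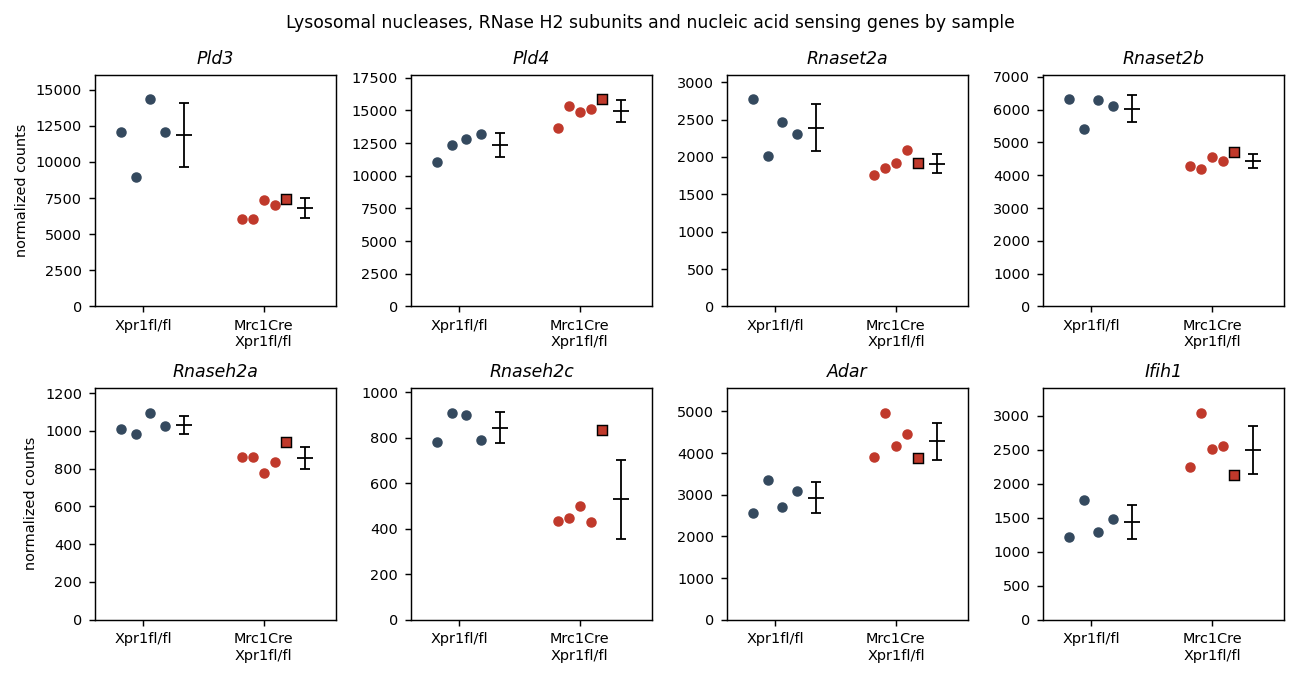
Normalized counts (y axis, from 0) of 4 lysosomal nuclease genes, 2 RNase H2 subunits, Adar and Ifih1 in each sample, with the mean and SD beside the points and Mrc1Cre Xpr1fl/fl sample 5 as a square. Pld3 and Rnaset2b lie wholly below the controls and Pld4, Adar and Ifih1 wholly above them, and the Rnaseh2c square at 831.1 lies among the controls.

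Around cGAS and STING, 10 of 22 regulators were higher and 2 lower, beside 21.5% and 21.6% of all genes tested. The largest rise was in Usp18, itself an interferon-inducible gene. It went from 282.3 ± 70.2 normalized counts (SD, n = 4) to 722.7 ± 121.0 (SD, n = 5), 2.58-fold (limma, adjusted p = 7.95e-05). Sec24c, a coat protein of vesicles leaving the endoplasmic reticulum (0.29, adjusted p = 0.000594), and Insig1, a sterol-regulated protein of that compartment (0.28, adjusted p = 0.0182), also rose, and the ubiquitin ligase Rnf5 fell (-0.27, adjusted p = 0.024). Of these 4, Usp18 alone passed with the date term (1.17, adjusted p = 0.0323). Of 10 genes for the transport or breakdown of cGAMP with a row, 4 were higher and 3 lower, which compares with 21.5% and 21.6% of all genes tested. Abcc1, an exporter (0.73, adjusted p = 8.77e-05), Slc19a1, an importer (0.35, adjusted p = 0.00574), and Lrrc8d, a channel subunit (0.33, adjusted p = 0.00085), rose. The importer Slc46a1 (-0.61, adjusted p = 0.00169) and the hydrolase Smpdl3a (-0.58, adjusted p = 0.00024) fell, whereas the hydrolase gene Enpp1 rose (0.31, adjusted p = 0.0063). Enpp1 went from a mean of 1637.5 normalized counts in controls to 2033.7, and its date-term value was 0.09. With the date term Abcc1 (0.59, adjusted p = 0.0209) and Smpdl3a (-0.58, adjusted p = 0.0342) passed, and Slc19a1 (adjusted p = 0.125), Lrrc8d (adjusted p = 0.149) and Slc46a1 (-0.35, adjusted p = 0.269) did not.

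Among 14 adaptors and partners of TBK1, 5 were higher and 2 lower, beside 21.5% and 21.6% of all genes tested. Irf7, the interferon-inducible relative of Irf3, rose 2.80-fold, from 2569.8 to 4510.4 normalized counts over the controls to 8148.4 to 11905.8 over the Mrc1Cre Xpr1fl/fl samples (log2 fold change 1.49, SE 0.15, limma, adjusted p = 3.43e-05), and it passed with the date term (1.34, adjusted p = 0.0154). Irf7 thus rose while Irf3 had a log2 fold change of -0.17. Traf3, a ubiquitin ligase upstream of TBK1 (0.61, adjusted p = 0.000822), and Sike1, which binds and restrains IKKε and TBK1 (0.54, adjusted p = 0.000209), rose, and the adaptor Optn (-0.48, adjusted p = 0.00123) and the NF-κB inhibitor gene Nfkbia (-0.23, adjusted p = 0.0462) fell. None of these 4 passed with the date term, at adjusted p from 0.0502 to 0.506. The 20 interferon ligand genes listed, Ifnb1 among them, had no row and were not analysed here.

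Other DNA-binding sensors moved in both directions, with 6 of 10 higher and 3 lower, beside 21.5% and 21.6% of all genes tested. Zbp1, a sensor of Z-form nucleic acid, had the largest rise of the list at 3.01-fold (1.59, SE 0.21, limma, adjusted p = 0.000197), followed by Lrrfip1 (0.73, adjusted p = 1.13e-05) and Prkdc, the catalytic subunit of the DNA-dependent kinase (0.49, adjusted p = 0.0354). Prkdc was at 544.0 normalized counts in sample 5, within the control range, and its date-term value was -0.11. Xrcc5 and Xrcc6, which encode the Ku subunits that bind DNA ends with that kinase, fell (-0.95, adjusted p = 0.000179, and -0.27, adjusted p = 0.0091), as did Hmgb1 (-0.15, adjusted p = 0.0363). With the date term the Zbp1, Lrrfip1 and Xrcc5 calls held (adjusted p = 0.0439, 0.00606 and 0.042) and those of Xrcc6 (adjusted p = 0.112) and Hmgb1 (adjusted p = 0.379) were lost. Of 9 inflammasome partners of AIM2, 4 were higher and 0 lower at this threshold, and their median log2 fold change was 0.0. The higher genes included the inflammatory caspases Casp1 (0.49, adjusted p = 4.9e-05) and Casp4 (0.50, adjusted p = 0.000622). Il1b (0.83, adjusted p = 0.00365) was higher too, though its groups overlapped. Il18 (-0.21, adjusted p = 0.0533), Ninj1 (-0.23, adjusted p = 0.062) and Gsdmd (-0.20, adjusted p = 0.0956) had negative values that did not pass. Casp1 and Casp4 passed with the date term (adjusted p = 0.0208 and 0.0301), and Il1b did not (adjusted p = 0.26).

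**Figure D4:**
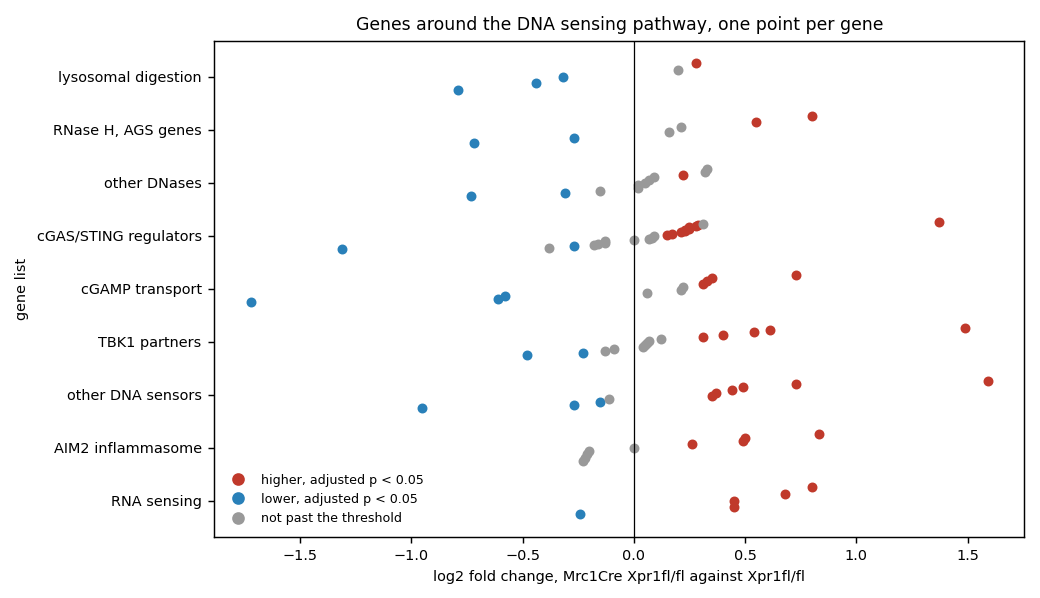
Log2 fold changes (x axis, Mrc1Cre Xpr1fl/fl against Xpr1fl/fl) of the listed genes other than the 10, 1 point per gene and 1 row per list (y axis), coloured by whether they passed an adjusted p of 0.05 in limma. Over these 91 genes tested, 36 were higher, 18 lower and 37 did not pass, with Zbp1 (1.59) and Irf7 (1.49) farthest to the right. The shares over all genes tested were 21.5% higher and 21.6% lower.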

How the data were processed

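Per the labels and the study's methods, the authors used FastQC on the paired-end reads, salmon with an index of GRCm39, tximport and DESeq2. Tool versions are not given in the sources used here. The deposited table gives each gene a non-negative signal, its count after division by the authors' normalization factors. Its 9 columns matched samples by name, and 0 columns belonged to no sample. Symbols came from GENCODE release 39 for mouse (GRCm39), which named 13698 of 13708 genes.

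Low values were mostly not whole multiples of a common step (17.1% to 33.6% of them within 0.1 of one), so reads were not recovered and no count test was run. Genes that reached 10 normalized counts in 4 or more samples entered limma 3.58.1 (R 4.3.3, eBayes with trend) on log2(normalized count + 1), which understates changes of low genes. P-values were adjusted by Benjamini-Hochberg over all genes tested, at 0.05. The tests were checked on simulated data. Levels between genes were compared per kilobase of canonical transcript, and plots were made in Python 3.11.15 (matplotlib 3.10.9).

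The 10 genes and all lists were chosen with earlier results of these data known. Genes were named by this rule: the 10 and Xpr1, up to 3 rises and 3 falls past the threshold in each pathway list with a mean of at least 50, Irf7 and Ifnb1, genes within 20 kb of the 10, the 5 genes most like Dnase2a and Cgas, and the most abundant marker of each list. Slc29a3, Enpp1, Il18, Ninj1, Gsdmd and Alb were named outside it, to give more of their lists. Alternatives were pseudocounts of 0.5 and 10, no filter and a minimum of 50, quantile normalization, scaling to the 75th percentile, robust fitting, array weights, limma without its trend, the replicate number as a block, the column date as a term, and leaving out each sample.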

Additional observations from a re-analysis of the deposited data

Results flagged for a closer look

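Within each genotype, the highest and lowest sample were compared with the others of the group by Dixon's ratio. This covered the 10 genes, Xpr1 and the genes named by the rule from the pathway lists, over 96 groups of samples. Chance alone would mark about 1 in 20 of these groups. Dixon's ratio marked 6. Trex1 was far above the rest in Mrc1Cre Xpr1fl/fl sample 2 at 1403.5 normalized counts, against 975.1 to 1091.9 in the other samples of that genotype. Zbp1 was also far above the rest in that sample, at 1554.6 against 936.0 to 1033.3. Rnaseh2c stood apart in Mrc1Cre Xpr1fl/fl sample 5 at 831.1 against 427.8 to 500.8, the sample that shares its column date with controls. Xrcc6 was highest in Mrc1Cre Xpr1fl/fl sample 1 at 942.1 against 815.2 to 848.3. Among controls, Nfkbia stood apart in sample 1 at 3922.7 against 3143.0 to 3213.0, and Lrrfip1 in sample 2 at 2868.6 against 2548.7 to 2586.6.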

How the results depend on the processing

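The fit with the date term changed the calls most. It has 5 residual degrees of freedom, and its standard error was 0.12 rather than 0.07 for Tbk1 and for Aim2. Tbk1 lost its call at a log2 fold change of 0.20 against 0.21, and Irf3 at -0.09 against -0.17. With the date as a term 1194 genes passed the threshold rather than 5865, 3 of the 10 genes were higher rather than 5, and 0 were lower rather than 1. After scaling to the 75th percentile or quantile normalization 2 of the 10 were lower, Dnase2a joining Irf3, and 4 were higher. Scaling to the 75th percentile also moved the split of calls, of which 35.0% were higher rather than 49.9%, and the median log2 fold change of all genes to -0.074. Leaving out 1 sample gave 4815 to 6081 genes past the threshold, 4 to 5 of the 10 higher and 0 to 1 lower, and a Sting1 log2 fold change of -0.17 to 0.00, which turned its sign without control sample 2. Prkdc turned to -0.11 with the date term. Samhd1, Cgas, Ikbke, Trex1 and Rnaseh2b kept their direction and their side of the threshold under all 20 alternatives. Of the 37 other genes named by the rule from the pathway lists, 9 did so. Dnase1l3 lost its call in 10 of the 20, Hmgb1 and Nfkbia in 9 each, and Prkdc in 8 beside the one that turned its sign. Xpr1 stayed lower and past the threshold in each fit. Deviations of same-numbered samples from their genotype means had correlations of -0.033, 0.147, -0.011 and -0.031, and 0.147 was the highest of all pairs compared. Correlations of so few samples cannot settle whether the numbers pair them. The same-numbered samples carried different column dates, and the main fit did not pair them. With the replicate number as a block 6226 genes passed, 5 of the 10 were higher, 1 was lower, and Xpr1 had a log2 fold change of -0.74. The causes of these changes were not tested. Depth is unknown, so no counting error could be given.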

Other observations

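The cytosolic RNA sensing arm, which meets the DNA sensing arm at TBK1, had 4 of 5 genes higher and 1 lower. Beside these counts, 21.5% of all genes tested were higher and 21.6% lower. Rigi, which encodes the sensor RIG-I, averaged 2953.9 ± 412.7 normalized counts with Cre (SD, n = 5) and 1853.9 ± 308.5 without (SD, n = 4), a rise of 0.68 on the log2 scale (adjusted p = 0.000928 from limma), and its ubiquitin ligase Trim25 rose by 0.45 on the log2 scale (adjusted p = 0.0012). Mavs, the mitochondrial adaptor of these sensors, was lower (-0.24, adjusted p = 0.00873). The sensors were thus higher and the adaptor lower, and with the date term 0 of the 5 genes passed, with a median log2 fold change of 0.49 over them.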
